A study of Mus musculus with 20 samples.

Results

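Broad H3K4me3 domains of WT Lin- bone marrow cells are long stretches of chromatin that carry trimethylated lysine 4 of histone H3 without a large break. H3K4me3 peaks on the autosomes were stitched where the gap between them was at most 1000 bp, and stitched domains of 4000 bp or more were kept. The rule kept 738 of 19736 domains (3.74%), which held 3.85 of the 30.0 Mb of all domains (12.8%). The median broad domain was 4784.5 bp long (quartiles 4314.5 and 5609 bp) and the longest was 12711 bp long. A single peak made up 158 of the domains, 257 joined 2 peaks, and 323 joined 3 or more. The members were chosen by the width and spacing of the WT H3K4me3 peaks, so their lengths in WT are a description and carry no test. For comparison, 4614 domains from 2000 bp to under 4000 bp are called intermediate, and the other 14384 are called narrow.

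The study asked how loss of the acetyltransferase p300, alone or with loss of the DNA demethylase TET2, altered the chromatin of bone marrow progenitors. Lin- cells are what remains of marrow after cells that carry lineage antigens of mature blood have been removed. All mice were C57BL/6, carried Ep300 fl/fl, and received poly(I:C) at 6 to 8 weeks of age. Those without Cre are called WT, those with Mx1-Cre Ep300Δ/Δ, those that also lacked Tet2 but had no Cre Tet2-/-, and those with both changes Ep300Δ/ΔTet2-/-. Mx1-Cre is induced by interferon throughout the blood system and in other tissues, so deletion was not limited to progenitors, and whether mice were pooled is not given in the sources used here. Each of the 4 genotypes had 1 library for each of 3 marks (H3K4me3, H3K27ac, and H3K4me1), so the spread between mice is unknown and genotypes are compared by their values, with no test. Intervals in brackets are exact Clopper-Pearson 95% intervals of a share, which cover counting error only. Peak lists do not give the depth of a library, which is therefore unknown, and a deeper library can give more and wider peaks. The H3K27ac lists held 29659 peaks in WT, 22727 in Ep300Δ/Δ, 24539 in Tet2-/-, and 18327 in Ep300Δ/ΔTet2-/- cells, so genotype and yield of a library cannot be told apart.

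H3K4me3 is written by the SET1 and MLL methyltransferases at promoters, most strongly at those rich in CpG dinucleotides, which are bound by CXXC proteins of these complexes. Broad H3K4me3 domains are known to mark genes that define the identity of a cell type, along with genes that respond quickly to signals. H3K27ac, placed by p300 and CBP, marks active promoters and enhancers, and H3K4me1 flanks active promoters and lies over enhancers.

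The promoters of 4 hematopoietic transcription factors show sequence inside long broad domains. They belong to the longest domains of the list with an entry in the RefSeq table used, which passes over Cebpe (8912 bp). Each sequence below holds the 250 bases upstream of an annotated start, from RefSeq on GRCm38.p6, read 5′ to 3′ on the plus strand, with CpG dinucleotides in capitals. The windows lie at chr6:88193641-88193890 (Gata2), chr11:24080445-24080694 (Bcl11a), chr8:84701207-84701456 (Lyl1), and chr6:134035450-134035699 (Etv6), inside domains of 10554, 9495, 9219, and 8420 bp.
Gata2: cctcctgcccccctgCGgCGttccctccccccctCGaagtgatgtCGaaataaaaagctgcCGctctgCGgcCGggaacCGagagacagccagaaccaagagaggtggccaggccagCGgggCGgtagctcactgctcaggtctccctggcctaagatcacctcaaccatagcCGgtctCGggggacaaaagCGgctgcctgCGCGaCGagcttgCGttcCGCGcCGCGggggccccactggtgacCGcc
Bcl11a: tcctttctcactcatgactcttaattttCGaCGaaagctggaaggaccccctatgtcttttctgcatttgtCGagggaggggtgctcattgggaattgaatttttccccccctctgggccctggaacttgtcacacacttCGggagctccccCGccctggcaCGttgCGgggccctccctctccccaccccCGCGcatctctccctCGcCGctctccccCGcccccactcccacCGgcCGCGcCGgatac
Lyl1: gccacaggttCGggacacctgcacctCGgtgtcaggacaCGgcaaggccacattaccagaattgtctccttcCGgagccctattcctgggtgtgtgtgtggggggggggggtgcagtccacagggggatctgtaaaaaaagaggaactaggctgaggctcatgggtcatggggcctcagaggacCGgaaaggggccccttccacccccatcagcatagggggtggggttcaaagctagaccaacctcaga
Etv6: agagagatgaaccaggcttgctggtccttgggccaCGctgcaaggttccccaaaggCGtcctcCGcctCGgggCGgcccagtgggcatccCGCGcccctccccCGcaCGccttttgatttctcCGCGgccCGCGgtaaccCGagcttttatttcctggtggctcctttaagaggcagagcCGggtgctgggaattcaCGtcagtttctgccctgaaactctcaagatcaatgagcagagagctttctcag
The Gata2 window holds 22 CpGs, the Bcl11a and Etv6 windows 16 each, and the Lyl1 window 5, so long domains held CpG-rich and CpG-poor starts. Gata2 is a stem cell factor, Bcl11a a repressor of fetal globin genes, Lyl1 a partner of the E proteins and a relative of Tal1, and Etv6 an ETS repressor that is rearranged in leukemia.

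Over whole broad domains, the GC content had a median of 53.7% and the observed-to-expected CpG ratio a median of 0.50 (quartiles 0.38 and 0.63), compared with 0.62 in intermediate and 0.50 in narrow domains. Of the length of a broad domain, a median of 1200 bp lay in 200-bp tiles with at least 50% GC and a CpG ratio of at least 0.6, against 800 bp in intermediate and 200 bp in narrow domains. As a share of length, such tiles made up a median of 23.8% of a broad, 35.7% of an intermediate, and 20% of a narrow domain. H3K4me3 thus ran well past the CpG-dense sequence in broad domains, and 63 of them (8.54%) held no such tile, close to the 8.15% of intermediate domains. Erg, Nfe2, and Gfi1b lay in domains at the CpG-poor end, with CpG ratios of 0.30, 0.17, and 0.22.

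Short consensus motifs were counted on both strands in the 300-bp windows around annotated starts (250 bases before and 50 after), with 1 window for each gene. The ETS motif CCGGAAGT occurred in 6.79% of 648 windows in broad domains, 9.63% of those in intermediate domains, and 5.64% of all 15687 windows. The GATA motif AGATAAG occurred in 1.54% of broad, 1.28% of intermediate, and 2.52% of all windows. For the RUNX motif TGTGGTTT the shares were 0.15%, 0.75%, and 1.65%, and for the MYB motif TAACTG 4.63%, 5.52%, and 8.26%. TATAAA was found in 7.87% of broad, 4.66% of intermediate, and 12.9% of all windows, and CCAAT in 38.6%, 38.2%, and 38.5%. All windows include 7251 of genes without any H3K4me3 domain, of which 3.85% held the GATA motif and 21.8% TATAAA, so broad windows lay below all windows and above intermediate windows for both. No motif contains another, and the windows of genes without any H3K4me3 domain were poorer in CpG (a median of 4 CpGs, against 23 in broad windows). A match is a description of these letters and not of binding.

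Nearly all broad domains were promoter domains. An annotated protein-coding start lay inside 711 of 738 (96.3%), compared with 93.9% of intermediate and 59.4% of all stitched domains. Together the broad domains held the starts of 876 protein-coding genes, or 4.22% of the 20780 on the autosomes, and 152 domains held 2 or more protein-coding genes, of which the Glb1l, Stk16, and Tuba4a domain is 1 example. In 131 domains the starts lay on both strands. In the 559 domains with a single protein-coding gene, H3K4me3 extended a median of 963 bp upstream (quartiles 547.5 and 1555 bp) and 3767 bp downstream (quartiles 3203.5 and 4577.5 bp) of its most upstream start. The downstream arm was the longer in 514 of 559 broad domains (91.9%) and in 91.4% of intermediate domains, where the medians were 709 and 1834 bp. Both arms add up to the WT length that chose the domains, and measuring from the most upstream start places the distance between starts downstream.

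At the threshold, the shortest domains kept were an unnamed domain on chromosome 10 and the Zfp592 domain, both of 4000 bp, and the Nek8 and Tlcd1 domain of 4001 bp. The longest left out were those of Cyb5r3 (3998 bp), Sla (3996 bp), and Rxrb with Slc39a7 (3996 bp).

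The genes in broad domains were rich in regulators of blood formation. Of 46 autosomal hematopoietic transcription factors, 29 had a start in a broad domain (63.0%), against 4.22% of all autosomal protein-coding genes. The 29 included the stem cell factors Gata2, Tal1, Lyl1, Lmo2, Erg, Fli1, Runx1, and Myb, the myeloid factors Cebpa, Cebpb, Cebpe, Gfi1, and Irf8, and the erythroid and megakaryocytic factors Gfi1b, Nfe2, and Zfpm1. Since broad domains hold only genes with H3K4me3, the share among listed genes in any stitched domain is the closer comparison, and it was 29 of 44 (65.9%), against 7.19% of all marked genes. Runx1 and Lmo2 each had 2 broad domains at separate promoters, which gave 31 domains in all. These shares describe lists whose members were known from earlier work on these data, and no enrichment test was made.

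Genes for signal response and leukemia were also frequent. Of 29 immediate early and feedback genes, 15 had a start in a broad domain, among them Fos, Jun, and Junb of the AP-1 factor, the MAP kinase phosphatase Dusp6, and the RNA-decay factors Zfp36, Zfp36l1, and Zfp36l2. Of 31 tumor suppressor and leukemia genes, 13 did, including Trp53, Cdk6, and the D cyclins Ccnd1, Ccnd2, and Ccnd3. Chromatin regulators had 11 of 45 genes in broad domains, among them the H3K4 methyltransferase genes Setd1b, Kmt2a, and Kmt2d. Of 23 progenitor receptors and surface proteins there were 6, including Kit and Cxcr4, and of 29 Hox genes and cofactors 3 (Hoxa7, Hoxa9, and Pbx2). Of the housekeeping lists, 4 of 30 cytosolic ribosomal protein genes (13.3%) and 1 of 31 proteasome genes (3.23%) had a start in a broad domain.

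**Figure D1:**
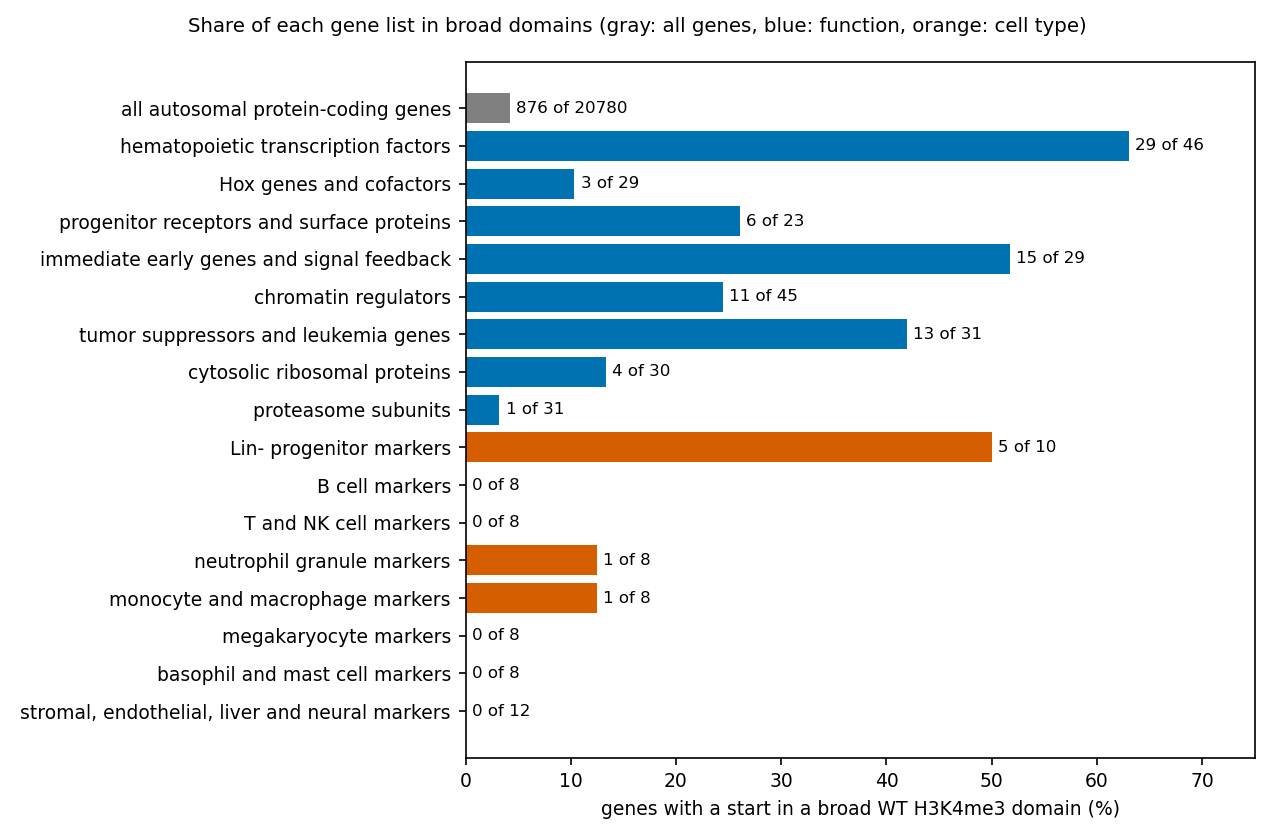
Percentage of autosomal genes of each list with a transcript start in a broad WT H3K4me3 domain (horizontal axis), for all protein-coding genes (gray), functional lists (blue), and cell type markers (orange), with counts beside the bars. Hematopoietic transcription factors reached 63.0%, against 4.22% of all genes.

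Marker lists of cell types were counted in the same way. Of 10 markers of Lin- progenitors, 5 lay in broad domains (Kit, Gata2, Myb, Mpo, and Cebpa), as did 1 of 8 neutrophil granule genes (Prtn3), and 1 of 8 monocyte genes (Irf8). None of the markers of B cells (8 genes), T and NK cells (8), megakaryocytes (8), basophils and mast cells (8), or stroma, endothelium, liver, and neurons (12) did. At the 4.22% share of all autosomal protein-coding genes, lists this short would often hold none, so no lack is read from them. Epx and Prg3, genes of eosinophil granules that were on none of these lists, had broad domains of 7406 and 6214 bp. In such bulk samples, fewer cells of a type and less of a mark per cell cannot be told apart.

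Noncoding genes had some of the longest domains. Of the 27 broad domains without a protein-coding start, 17 held an annotated start of another kind. The longest was that of Mir142hg (chr11:87748079-87758832, 10754 bp), the host transcript of a microRNA of blood cells, followed by the nuclear long noncoding RNAs Neat1 (9759 bp) and Malat1 (7126 bp), an unnamed domain of 6653 bp whose edge lay 313 bp from the nearest start of Kdm6b, and Gm16170 (6074 bp). The Trerf1 and Zswim6 starts were counted here because the annotation used lists them as processed transcripts.

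MicroRNA genes numbered 42 in 32 broad domains, and RefSeq listed 37 mature sequences of 24 miRNA genes in 21 of the broad domains. Of the 5 from domains without a protein-coding start, both arms of miR-142a from the Mir142hg domain and let-7i-5p, whose domain was 5730 bp long, are shown with the seed (bases 2 to 8) in capitals.
miR-142a-5p: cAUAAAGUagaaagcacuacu
miR-142a-3p: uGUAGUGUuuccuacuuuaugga
let-7i-5p: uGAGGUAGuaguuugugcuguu
The 3 seeds differ from each other. H3K27ac covered 9374 bp of the Mir142hg domain in WT, 8699 bp in Ep300Δ/Δ, 8729 bp in Tet2-/-, and 8494 bp in Ep300Δ/ΔTet2-/- cells, the most of any of the 738 domains in WT. The let-7i domain had 1255, 1062, 928, and 1000 bp in the same order.

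In WT cells, nearly all broad domains held both H3K27ac and H3K4me1. An H3K27ac peak lay in 711 of 738 broad domains (96.3%, interval 94.7% to 97.6%), compared with 90.9% of intermediate and 61.1% of all stitched domains, and an H3K4me1 peak in 727 (98.5%, interval 97.3% to 99.3%), compared with 92.4% and 82.5%. A longer domain is more easily touched by a peak. Within 1000 bp around the strongest WT H3K4me3 summit, a window chosen after seeing the data, 93.2% of broad domains had an H3K27ac peak, but 56.6% an H3K4me1 peak. Over all stitched domains the same window gave 60.4% and 69.6%, so there H3K4me1 was less frequent in broad than in all domains. Of all bases in broad domains, 25.3% were covered by H3K27ac alone in WT, 26.6% by H3K4me1 alone, 24.0% by both, and 24.1% by neither. In intermediate domains the share with both was 14.9%.

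Around the start, the marks followed an ordered pattern. In the 559 broad domains with a single protein-coding gene, WT H3K27ac covered 68.6% of the bases in the first 1000 bp downstream, 40.0% from 1000 to 3000 bp, and 19.2% from 3000 to 5000 bp. H3K4me1 covered 25.7% of the first 1000 bp, 51.1% from 1000 to 3000 bp, and 52.2% from 3000 to 5000 bp, and its highest coverage (61.6%) lay 3050 bp downstream. In intermediate domains that maximum lay at 1450 bp. Outside the domains, H3K4me1 covered 38.4% of the 1000 bp next to each edge and H3K27ac 6.35%, while 500 bp inside the edge they covered 71.4% and 35.4%. The body of a broad domain was thus acetylated near the start and bordered by H3K4me1.

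**Figure D2:**
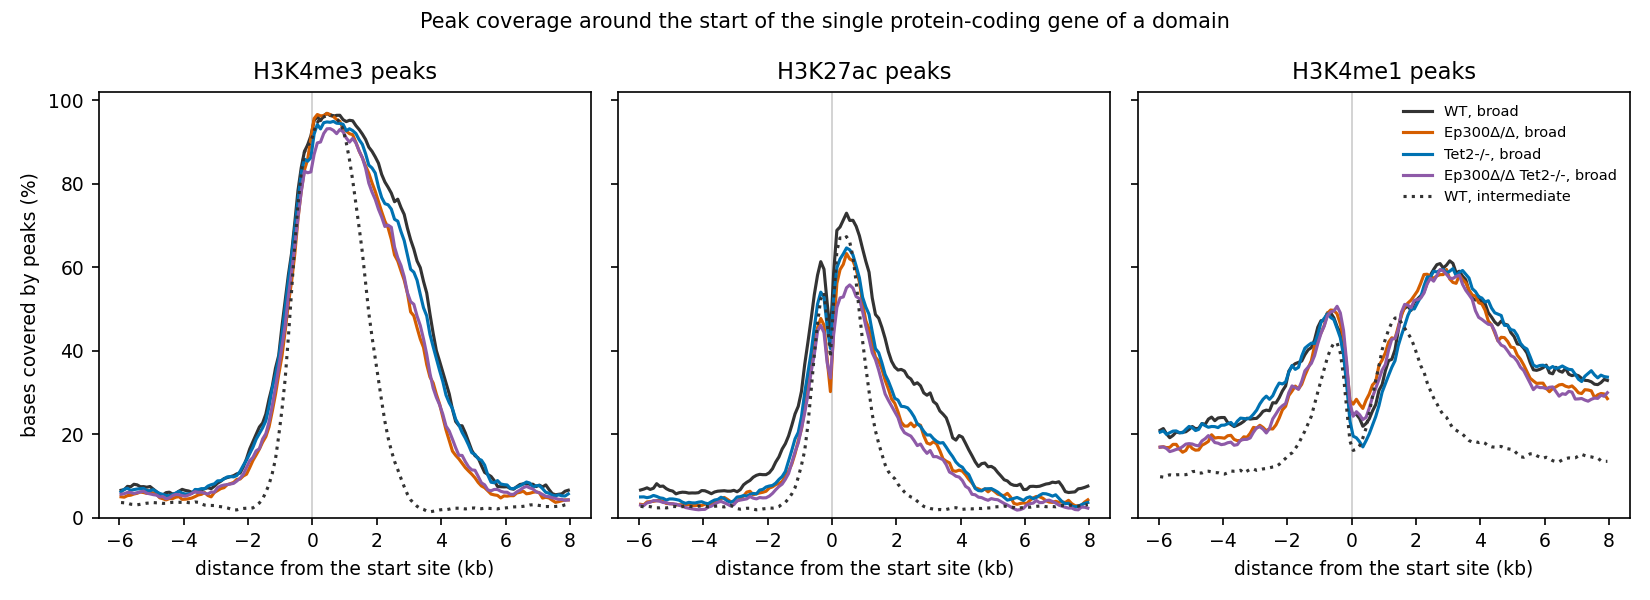
Percentage of bases covered by peaks (vertical axis) in 100-bp bins by distance in kb from the start of the single protein-coding gene (horizontal axis, downstream to the right) for each mark. Solid lines are the 559 broad domains in the 4 genotypes, and dotted lines the 3552 intermediate domains in WT. WT H3K27ac peaked at 73.0% at 450 bp, and its line stayed above those of the other genotypes downstream.

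Ep300 deletion on the WT background went with less H3K27ac coverage of broad domains. The median domain had 2483.5 bp under H3K27ac peaks in WT and 1859 bp in Ep300Δ/Δ cells, or 50.2% and 37.6% of its length. The ratio of covered bases in Ep300Δ/Δ to WT had a median of 0.77 (quartiles 0.62 and 0.91), close to 0.79 over all stitched domains. Of 696 broad domains with at least 500 bp in either genotype, 615 (88.4%, all domains 84.4%) had fewer covered bases in Ep300Δ/Δ cells, 100 (14.4%, interval 11.8% to 17.2%) had at most 0.5 times those of WT, and 7 had at least 2 times. Over all stitched domains these 2-fold calls made up 16.8% and 1.37%, so the share of broad domains called lower lay near the background. With peaks limited to a -log10 q of at least 5, the share called lower was 29.7% of broad and 26.0% of all domains, and the share without any peak left 9.49% and 23.4%. All H3K27ac peaks were missing in Ep300Δ/Δ cells from 24 of the 711 domains (3.38%, interval 2.17% to 4.98%), against 14.7% of all stitched domains, although a wider domain is more easily touched by a remaining peak. Within 1000 bp around the strongest summit, the share was 5.81% of broad domains and 15.5% of all stitched domains.

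On the Tet2-/- background, H3K27ac coverage was also lower with Ep300 deletion. The median broad domain had 2037.5 bp under H3K27ac in Tet2-/- and 1713 bp in Ep300Δ/ΔTet2-/- cells, and the ratio had a median of 0.86 (quartiles 0.68 and 1.01), against 0.91 over all domains. Of 682 broad domains, 494 (72.4%, all domains 61.0%) had fewer covered bases in Ep300Δ/ΔTet2-/- cells, 81 (11.9%, interval 9.54% to 14.5%) at most 0.5 times those of Tet2-/- cells, and 7 at least 2 times, beside 12.9% and 3.62% of all domains. Every H3K27ac peak was missing from 36 of 702 domains (5.13%, interval 3.62% to 7.03%), against 15.9% of all. With lists of equal length 7.67% of broad domains were at most 0.5 times, a setting without a share over all domains to set beside it. Within 1000 bp around the strongest summit 8.32% kept no peak, against 17.0% of all stitched domains. Of 675 domains with enough coverage on both backgrounds, 448 (66.4%, intermediate domains 55.3%, all domains 53.5%) had fewer covered bases with Ep300 deletion on each, and 37 (5.48%, intermediate domains 6.92%, all domains 7.16%) had more on each. Whether the effect differed between the backgrounds was not tested. Of the marker lists given here, some had fewer marked genes in the genotypes with Ep300 deletion and others did not. An H3K27ac peak lay within 1000 bp of the start of 4 of 8 neutrophil granule genes in WT, 0 in Ep300Δ/Δ, 1 in Tet2-/-, and 0 in Ep300Δ/ΔTet2-/- cells. Of 8 basophil and mast cell genes the numbers were 4, 2, 3, and 2, of 8 monocyte and macrophage genes 5, 4, 5, and 3, and of 8 megakaryocyte genes 3, 4, 3, and 5. Of 10 Lin- progenitor markers they were 8, 8, 7, and 7, of 8 B cell genes 3, 3, 3, and 1, of 8 T and NK cell genes 3, 3, 3, and 2, and of 12 genes of stroma, endothelium, liver, and neurons 0, 0, 1, and 0. Over all autosomal protein-coding genes the shares were 46.5%, 44.4%, 45.5%, and 42.4%. The part of cell composition in these results was not tested.

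Tet2-/- cells also had less H3K27ac over broad domains than WT cells, with a median ratio of 0.85, against 0.93 over all domains. The covered bases were at most 0.5 times those of WT in 61 of 698 domains (8.74%, all domains 9.24%) and at least 2 times in 8 (all domains 3.98%), and no peak was left in 17 of 711 (2.39%, all domains 11.3%). Between Ep300Δ/Δ and Ep300Δ/ΔTet2-/- cells the median ratio was 0.93 in broad and 1.03 in all domains, with 62 of 671 broad domains (9.24%, all domains 6.69%) at most 0.5 times, 19 (2.83%, all domains 7.99%) at least 2 times, and 33 of 692 (4.77%, all domains 12.8%) without a peak. From WT to Ep300Δ/ΔTet2-/- cells the median ratio was 0.72 (all domains 0.83), and 163 of 694 broad domains (23.5%, interval 20.4% to 26.8%) were at most 0.5 times, beside 19% of all. In the same comparison 8 (all domains 3.75%) were at least 2 times, and 46 of 711 (6.47%, all domains 19.6%) kept no peak. WT had the highest H3K27ac coverage of the 4 genotypes at 487 of 721 broad domains (67.5%, intermediate domains 50.2%, all domains 43.9%), and Ep300Δ/ΔTet2-/- cells had the lowest at 348 (48.3%, intermediate domains 32.5%, all domains 25.0%). The WT H3K27ac list was also the longest of the 4, and the WT H3K4me3 list chose the domains. These comparisons share libraries and are not independent.

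**Figure D3:**
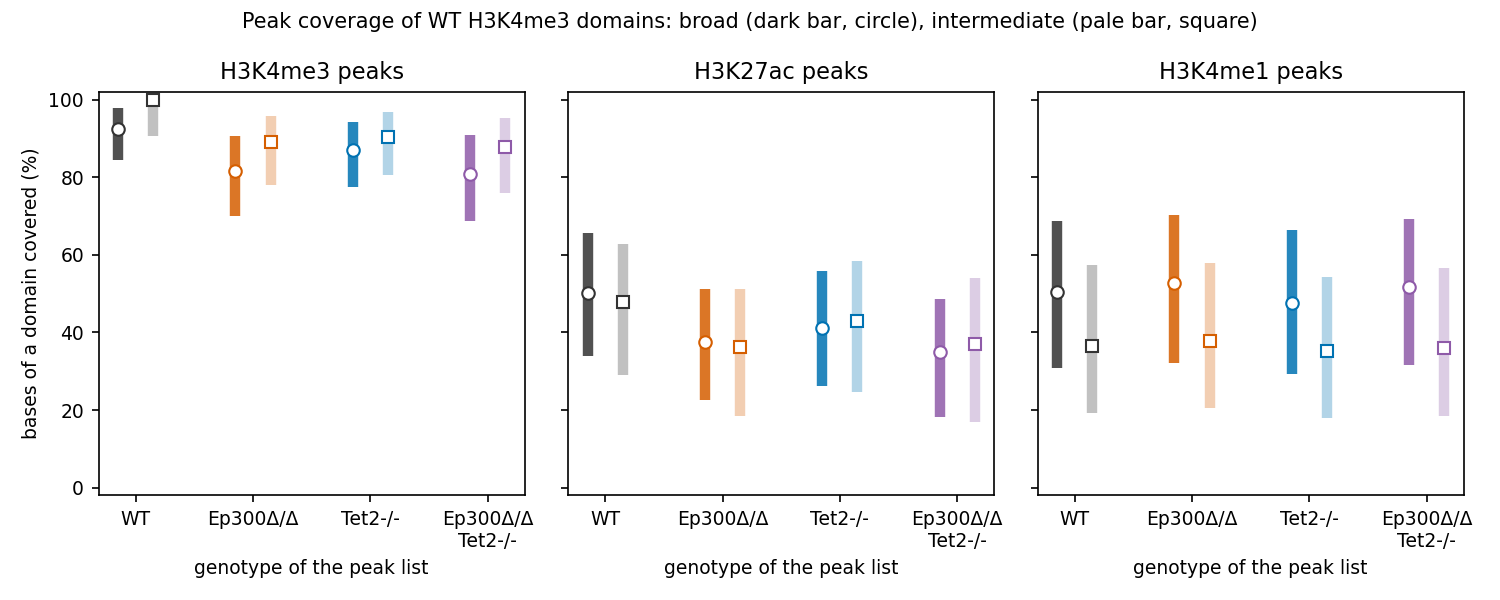
Percentage of a WT H3K4me3 domain covered by peaks of each mark (vertical axis) in each genotype (horizontal axis). Markers are medians and bars run between the quartiles over domains, for 738 broad (dark, circle) and 4614 intermediate domains (pale, square). For H3K27ac the broad medians were 50.2%, 37.6%, 41.1%, and 34.9% in the order of the axis.

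H3K4me1 coverage of broad domains differed little between the lists. The median domain had 2530.5 bp in WT, 2566 bp in Ep300Δ/Δ, 2379 bp in Tet2-/-, and 2534.5 bp in Ep300Δ/ΔTet2-/- cells, and the median ratios were 1.02 from WT to Ep300Δ/Δ and 1.03 from Tet2-/- to Ep300Δ/ΔTet2-/- cells. With Ep300 deletion 16 of 717 domains (2.23%, all domains 6.39%) were at most 0.5 times and 30 (4.18%, all domains 6.9%) at least 2 times WT. On the Tet2-/- background these numbers were 17 of 709 (2.40%, all domains 6.26%) and 34 (4.80%, all domains 8.56%). The peak was missing at 5 of 727 domains with Ep300 deletion in WT (0.69%, all domains 7.94%) and at 4 of 720 on the Tet2-/- background (0.56%, all domains 6.56%). From WT to Tet2-/- cells, 30 of 702 domains (4.27%, all domains 9.53%) were at most 0.5 times, 16 (2.28%, all domains 5.83%) at least 2 times, and 12 of 727 (1.65%, all domains 10.1%) without a peak. From Ep300Δ/Δ to Ep300Δ/ΔTet2-/- cells the numbers were 20 of 719 (2.78%, all domains 7.72%), 18 (2.50%, all domains 6.39%), and 6 of 730 (0.82%, all domains 7.68%). From WT to Ep300Δ/ΔTet2-/- cells they were 25 of 714 (all domains 8.33%), 23 (3.22%, all domains 7.24%), and 6 of 727 (0.83%, all domains 7.92%). All these shares lay below those of all domains, but a wider domain is more easily touched by a remaining peak. From WT to Ep300Δ/Δ cells the peak was missing at 3.64% of intermediate and 10.0% of narrow domains. At most 0.5 times remained at 5.35% and 7.43%, so these shares fell with length. The share of bases in broad domains under H3K4me1 alone was 26.6% in WT, 34.4% in Ep300Δ/Δ, 32.5% in Tet2-/-, and 36.1% in Ep300Δ/ΔTet2-/- cells, and the share under both marks 24.0%, 18.1%, 16.1%, and 14.9%.

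H3K4me3 in the other genotypes was set beside WT, whose H3K4me3 chose the members, so less coverage elsewhere than in WT is favored by the choice. A peak was present in 737 of 738 domains in each of Ep300Δ/Δ, Tet2-/-, and Ep300Δ/ΔTet2-/- cells, so 1 was without a peak in each, beside 11%, 8.36%, and 11% of all domains. With Ep300 deletion on the Tet2-/- background 1 of 737 lost its peak (all domains 4.9%), and with Tet2 loss on the Ep300Δ/Δ background 0 did (all domains 3.84%). The exceptions were Adm2, a peptide hormone gene of the calcitonin family (3220, 0, 1579, and 0 bp in WT, Ep300Δ/Δ, Tet2-/-, and Ep300Δ/ΔTet2-/- cells), and Adam33, a metalloprotease gene (4147, 3061, 0, and 1111 bp). The median covered length was 4390.5 bp in WT, 3924 bp in Ep300Δ/Δ, 4153 bp in Tet2-/-, and 3929.5 bp in Ep300Δ/ΔTet2-/- cells. At most 0.5 times the WT coverage remained at 15 of 738 domains in Ep300Δ/Δ cells (2.03%, all domains 6.98%), 6 in Tet2-/- cells (0.81%, all domains 4.58%), and 19 in Ep300Δ/ΔTet2-/- cells (2.57%, all domains 8.17%), and none had at least 2 times, as for all domains (0%). Nothing is read from these contrasts with WT. From Tet2-/- to Ep300Δ/ΔTet2-/- cells 9 were at most 0.5 times (1.22%, all domains 3.02%) and 1 at least 2 times (0.14%, all domains 0.332%), and from Ep300Δ/Δ to Ep300Δ/ΔTet2-/- cells 3 (0.41%, all domains 1.97%) and 0 (all domains 1.02%).

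When each H3K4me3 list was stitched on its own, the number of broad domains was 738 in WT, 535 in Ep300Δ/Δ, 703 in Tet2-/-, and 582 in Ep300Δ/ΔTet2-/- cells, so it was lower with Ep300 deletion on each background. Of the WT broad domains, 64.0% overlapped a broad domain of Ep300Δ/Δ, 77.6% one of Tet2-/-, and 66.0% one of Ep300Δ/ΔTet2-/- cells, which were 88.6%, 81.5%, and 84.0% of those lists. Domains chosen for their length in WT are more likely to be shorter elsewhere, so both directions were counted. At WT broad domains, 86.0% were shorter in Ep300Δ/Δ cells, and at the 535 broad domains of Ep300Δ/Δ cells 30.5% were shorter in WT. For Tet2-/- cells the shares were 58.5% and 61.5%, and for Ep300Δ/ΔTet2-/- cells 76.7% and 45.2%. In all 4 genotypes 401 domains (54.3%) were broad, and 110 were broad in WT alone.

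**Figure D4:**
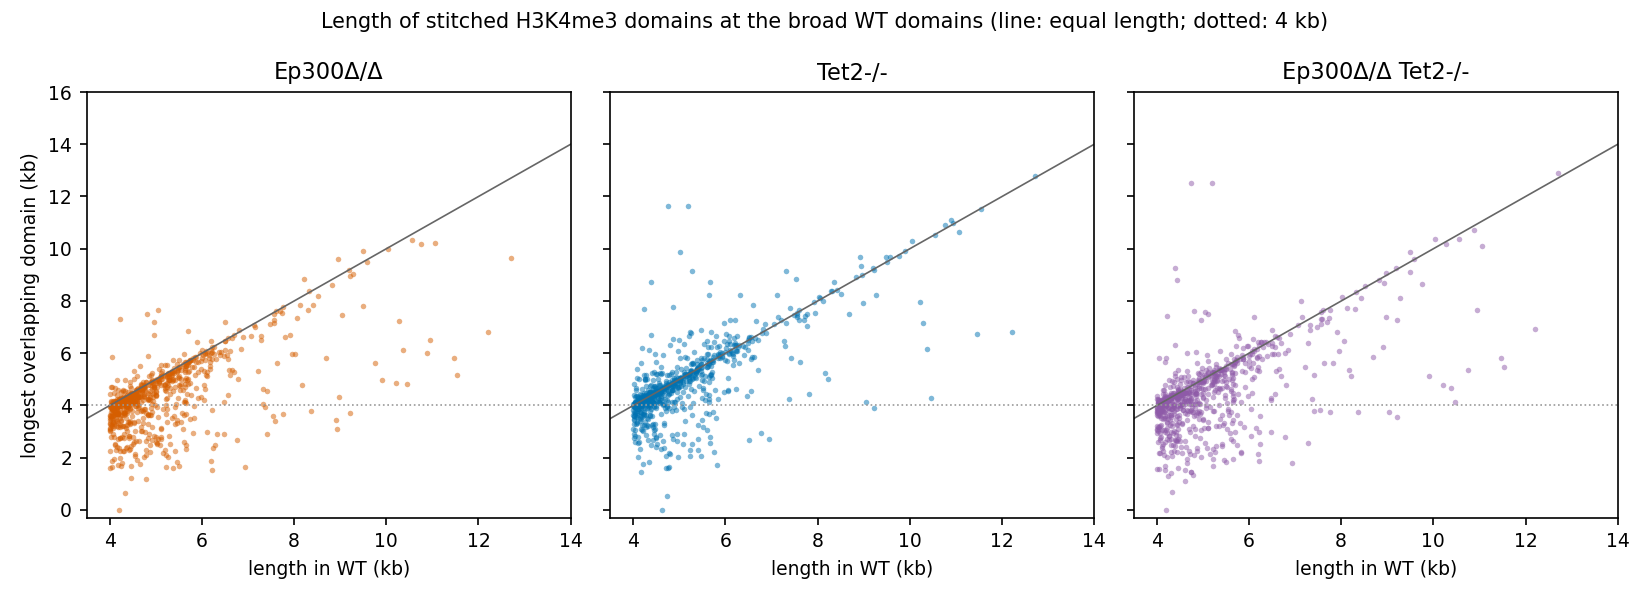
Length in kb of the longest stitched H3K4me3 domain that overlaps each of the 738 broad WT domains (vertical axis) against the WT length (horizontal axis), for 3 genotypes. Each point is a domain, the line marks equal length, and the dotted line the 4-kb threshold. In Ep300Δ/Δ cells 86.0% of the points lie below the line, and in Tet2-/- cells 58.5%.

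The 12 longest domains ranged from 10284 to 12711 bp. The longest, at Irf2bp2 (chr8:126583679-126596389), a partner of the repressor IRF2, had 7875, 6523, 6977, and 6170 bp of H3K27ac in WT, Ep300Δ/Δ, Tet2-/-, and Ep300Δ/ΔTet2-/- cells. At Ppp1r9b (12206 bp), which encodes a targeting subunit of protein phosphatase 1, the same values were 5323, 2835, 1294, and 1046 bp. At Glb1l, Stk16, and Tuba4a (11537 bp) they were 7111, 2708, 2102, and 2477 bp. WT was the highest of the 4 at these 3 domains, narrowly at the first and by more than 1.5 times at the others. At Zbtb7b, the factor of helper T cell choice, H3K27ac covered 2288, 1142, 2128, and 863 bp, lower in both genotypes with Ep300 deletion. At Setd1b, an H3K4 methyltransferase gene, it covered 7741, 6905, 6658, and 4810 bp. At the immune adaptor genes Hcst and Tyrobp, which share a domain with Nfkbid (10940 bp), it covered 9059, 6945, 5802, and 4927 bp. Both followed the same order, with WT highest and Ep300Δ/ΔTet2-/- lowest. This group also held the domains of Pfn1 with Rnf167 and Slc25a11, of Mgat1, and of Mafg with Sirt7, and WT had the most H3K27ac at each of these.

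Gata2, the stem cell factor whose promoter is printed above, stood apart among the 12. Its domain (chr6:88193392-88203945) had 10432, 10003, 10412, and 10209 bp of H3K4me3 and 7683, 7898, 7000, and 7608 bp of H3K4me1 in WT, Ep300Δ/Δ, Tet2-/-, and Ep300Δ/ΔTet2-/- cells. H3K27ac covered only 187 bp in WT, 1122 bp in Ep300Δ/Δ, 3820 bp in Tet2-/-, and 0 bp in Ep300Δ/ΔTet2-/- cells. The 2 methylation marks were close in the 4 lists, while H3K27ac was highest in Tet2-/- cells and absent with Ep300 deletion on that background.

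Over the 31 domains of hematopoietic transcription factors, H3K27ac covered a median of 2552 bp in WT, 2270 bp in Ep300Δ/Δ, 2034 bp in Tet2-/-, and 2381 bp in Ep300Δ/ΔTet2-/- cells. Fewer bases were covered in Ep300Δ/Δ than in WT cells at 24 domains and more at 7. On the Tet2-/- background there were fewer at 17 and more at 12. Of broad domains with at least 500 bp in either genotype, 88.4% had fewer on the WT background (all stitched domains 84.4%). On the Tet2-/- background the shares were 72.4% and 61.0%. Lower coverage was thus not more frequent at the factor domains. The median ratio was 0.84 on the WT background, beside 0.77 over all broad domains, and 0.95 on the Tet2-/- background, beside 0.86. Of these domains 25 of 31 (80.6%) were broad in all 4 genotypes, beside 54.3% of all broad domains, but they were also longer in WT (a median of 5664 bp, against 4784.5 bp) and so further from the threshold.

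Single factors differed in direction. At Lyl1, which shares its domain with Nfix, H3K27ac covered 7936, 4792, 4455, and 3658 bp in WT, Ep300Δ/Δ, Tet2-/-, and Ep300Δ/ΔTet2-/- cells. At Cebpe, a factor of granulocyte maturation, it covered 3016, 777, 1573, and 215 bp, lower with Ep300 deletion on each background. H3K4me3 covered 7866, 4009, 7853, and 4990 bp there, lower with Ep300 deletion on the Tet2-/- background. Its contrast with WT, whose H3K4me3 chose the members, is not read. At Irf8, a factor of monocyte and dendritic cell fate, H3K27ac covered 1533, 4235, 1786, and 2821 bp, and was higher with Ep300 deletion on each background. Bcl11a had 4284, 4068, 4238, and 3444 bp, Etv6 5896, 4780, 5766, and 5468 bp, and Tal1 4655, 3901, 4283, and 4286 bp. Each of these 3 had over 3000 bp in all 4 genotypes. Ikzf1, which encodes the lymphoid factor Ikaros, had 4454, 3462, 3422, and 3809 bp. Erg, an ETS factor of stem cells, had 4844, 4725, 3917, and 4902 bp, with the lowest value in Tet2-/- cells. Gfi1, a repressor of stem cell proliferation, had 3344, 1912, 1235, and 906 bp, with WT highest. The other factor domains had from 0 to 4654 bp in WT. Myb, a factor of progenitor proliferation, had 3308, 2295, 1701, and 3168 bp of H3K27ac in its domain of 5962 bp.

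**Figure D5:**
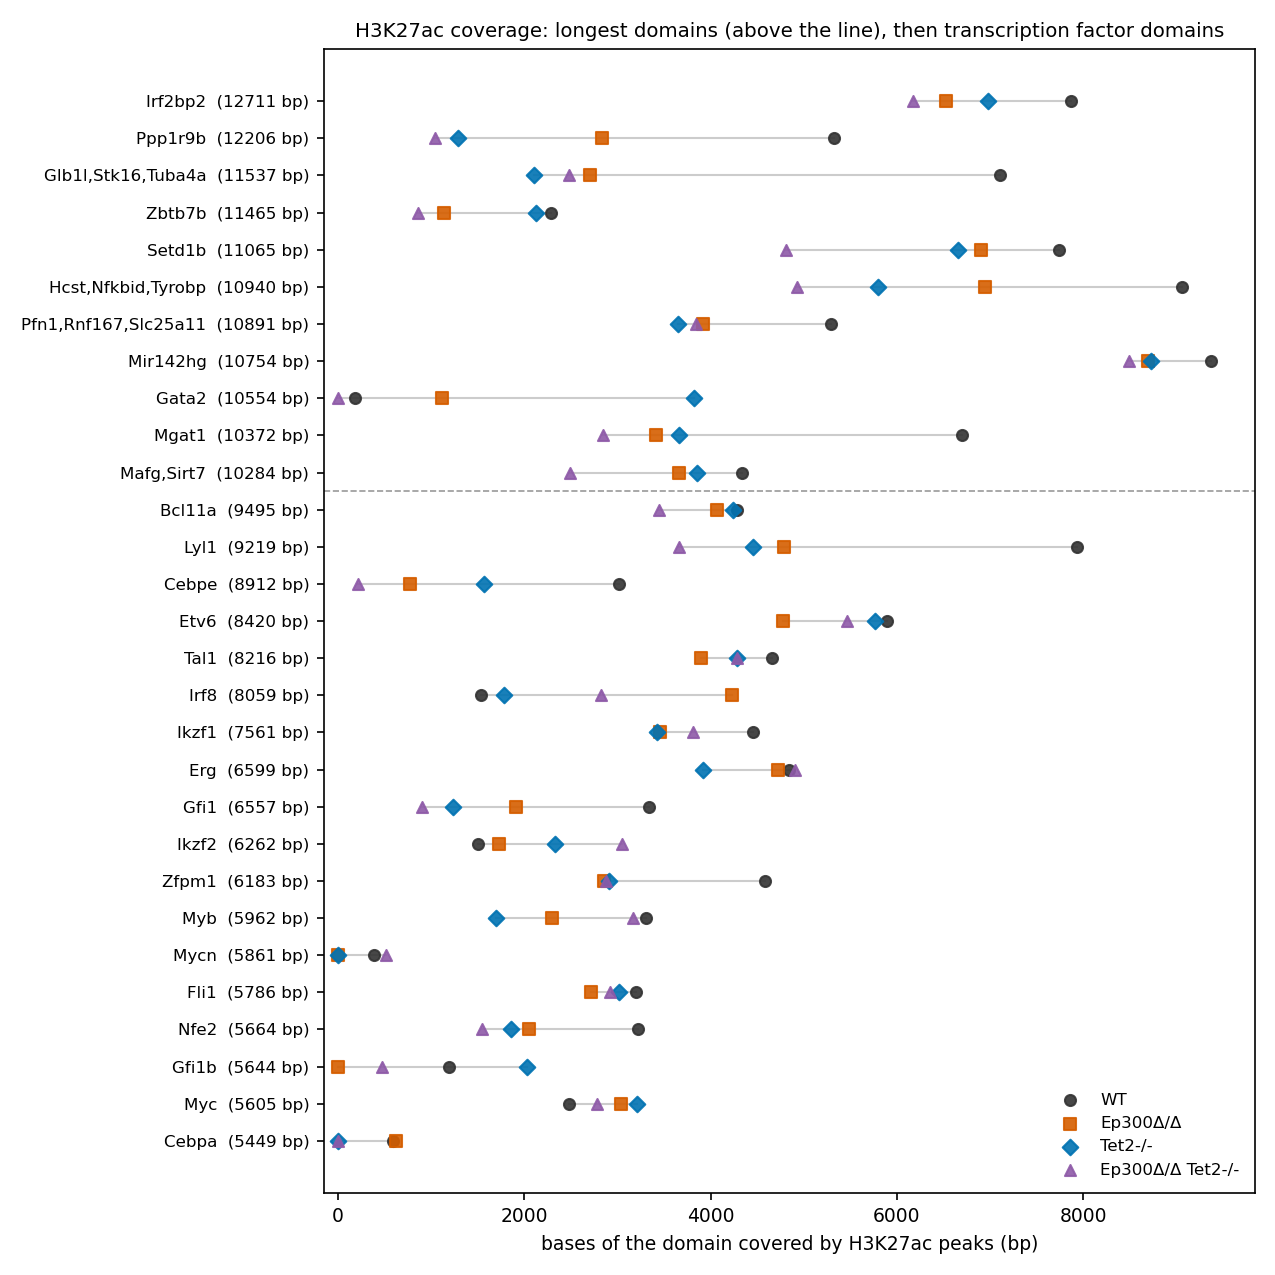
Bases covered by H3K27ac peaks (horizontal axis, bp) in each genotype (marker shape and color) for the longest broad domains (above the dashed line) and 18 further domains of hematopoietic transcription factors (below), labelled with the genes and the WT length. Above the line WT is the rightmost marker at each domain but Gata2. Below it WT is the leftmost marker at Irf8, Ikzf2, and Myc.

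The lowest ratios with Ep300 deletion on the WT background were at domains that kept no H3K27ac peak. They were Alcam, an adhesion molecule (1962 bp in WT and 0 in Ep300Δ/Δ cells), Slc11a2, an iron transporter (1683 and 0 bp), the glycolytic enzyme gene Gpi1 (1404 and 0 bp), Rab3il1 (1256 and 0 bp), and Gfi1b, the erythroid and megakaryocytic repressor (1197 and 0 bp). These 5 were among 15 of 687 broad domains (2.18%) that went from at least 500 bp to 0, compared with 3.26% of intermediate and 5.34% of all stitched domains. The highest ratios were at Lzts2 (0 and 1897 bp), Cxxc5 (236 and 1933 bp), and Gata2 (187 and 1122 bp).

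On the Tet2-/- background the lowest ratios were at Gata2 (3820 bp in Tet2-/- and 0 in Ep300Δ/ΔTet2-/- cells), Trib2, a pseudokinase linked to leukemia (2695 and 0 bp), Cbfa2t3, a corepressor of the ETO family (2679 and 0 bp), Chst13 (2574 and 0 bp), and the cytolinker gene Plec (2473 and 0 bp). They were among 25 of 674 such broad domains (3.71%), compared with 4.43% of intermediate and 6.35% of all stitched domains. The highest were at Mycn, a MYC family factor (0 and 513 bp), an unnamed domain of 4000 bp on chromosome 10 (994 and 2714 bp), and Hlf, a stem cell factor (374 and 977 bp).

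A group of 27 broad domains had no H3K27ac peak in WT, and 17 of these had none in any genotype. H3K4me1 was present in 25 of the 27. The longest were those of Epx, the eosinophil peroxidase (7406 bp), Prg3, a granule protein gene of eosinophils (6214 bp), Gm16170 (6074 bp), Dmtn, a protein of the red cell skeleton (5817 bp), and Dusp4, a MAP kinase phosphatase (5267 bp). Epx had 7003, 4123, 6712, and 4944 bp of H3K4me3 in WT, Ep300Δ/Δ, Tet2-/-, and Ep300Δ/ΔTet2-/- cells and Prg3 4411, 1147, 4992, and 2013 bp. On the Tet2-/- background H3K4me3 was lower with Ep300 deletion at both, as at 70.1% of broad and 57.1% of all domains. The contrasts with WT, whose H3K4me3 chose the members, are not read. Dmtn had 5640, 4758, 1707, and 2382 bp, with the low values in the genotypes without Tet2. An H3K27ac peak was called at 5, 8, and 5 of the 27 in Ep300Δ/Δ, Tet2-/-, and Ep300Δ/ΔTet2-/- cells, beside 565, 832, and 648 of the 7682 stitched domains of any length without WT H3K27ac. Of all 738 broad domains, 654 (88.6%) had an H3K27ac peak in all 4 genotypes.

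The genes targeted in the study and others of its interest mostly lay outside the broad class. The Ep300 start lay in an intermediate domain of 2970 bp and the Tet2 start in 1 of 2452 bp, and peak lists of promoter marks do not check a deletion inside the gene. Notch1 lay in an intermediate domain (3113 bp) with 852, 372, 0, and 0 bp of H3K27ac in the order of genotypes used above. Dntt lay in a narrow domain (1926 bp).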

How the data were processed

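Lin- bone marrow cells of 4 genotypes were profiled by ChIP-seq with Drosophila chromatin as a spike-in. Of 20 samples, 12 peak lists (H3K4me3, H3K27ac, and H3K4me1, 1 library each) were used, and 8 samples (H3 and H3K27me3) were not analysed here. Per the submitters' processing notes and the study's methods, reads were trimmed with cutadapt 1.15, aligned with BWA 0.7.13 to mm10, and freed of duplicates with Picard, and the authors called narrow peaks with MACS2 2.1.1.20160309 against the H3 library of the same genotype, keeping peaks found in pseudo-replicates. The lists nevertheless held peaks with a q above 0.05, unevenly, at 7.17% of the Ep300Δ/Δ H3K27ac list, 0.90% of that of WT, and 0.14% to 4.82% of the other lists. The deposited lists give a fold enrichment over H3 at each summit, a -log10 p value and a -log10 q value, all made by the authors' peak caller. The deposited score column follows the p-value and was not used. Whether the spike-in scaled the lists is not given in the sources used here, and peak widths vary with depth, which the lists do not give.

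WT H3K4me3 peaks on 19 autosomes were stitched and covered bases of each mark were counted with Python 3.11.15, numpy 2.4.6, pandas 2.3.3, scipy 1.17.1, and pysam 0.24.0, and figures were drawn with matplotlib 3.10.9. Stitching was checked against bedtools 2.31.1 and the counts were tested on simulated data. A mark was present from 1 bp of overlap. Ratios of covered bases between genotypes were called at 2-fold for domains with at least 500 bp in either genotype, and median ratios used domains with at least 500 bp in the first genotype. Genes came from GENCODE vM21 on GRCm38, the build of the peak lists, and promoter and miRNA sequences from RefSeq.

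The members and gene lists were chosen with earlier results of these data known. Named domains were the 12 longest, those of listed hematopoietic transcription factors (values in full for the 10 longest), the 5 lowest and 3 highest H3K27ac ratios with Ep300 deletion on each background, the 5 longest without WT H3K27ac or without a protein-coding start, those without H3K4me3 elsewhere, and genes of the study's interest. Of the 12 longest domains 1, of the 18 domains shorter with Ep300 deletion 1, and of the marker lists 1, are not reported here. Alternatives changed the stitching gap, the minimum length, the peak threshold, the list length, the overlap, and the fold, and a window around the summit was added after seeing the data.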

Additional observations from a re-analysis of the deposited data

Results flagged for a closer look

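At 5 broad domains the covered bases of a mark differed by at least 2-fold with Ep300 deletion on both backgrounds, in opposite directions. With 1 library per genotype, the difference between backgrounds was not tested. The share of such domains among all stitched domains is not given here. Single 2-fold H3K4me1 calls with Ep300 deletion made up 6.26% to 8.56% of all stitched domains, by direction and background. Several of the values below lie near the minimum of 500 bp. At Gata2, H3K27ac covered 187 bp in WT and 1122 bp in Ep300Δ/Δ cells, but 3820 bp in Tet2-/- and 0 bp in Ep300Δ/ΔTet2-/- cells. The other 4 concern H3K4me1. At Arid5b it covered 525 and 0 bp on the WT background and 0 and 943 bp on the Tet2-/- background, without and with Ep300 deletion. At Hivep1 the values were 0 and 834 bp, then 798 and 153 bp. At the domain of Mrps18b and Ppp1r10 they were 1173 and 530 bp, then 515 and 1221 bp, and at Maml3 1199 and 534 bp, then 180 and 576 bp.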

How the results depend on the processing

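Some comparisons turned round. A WT H3K4me1 peak was more frequent in broad than in all stitched domains, but less frequent within 1000 bp around the strongest summit. With -log10 q of at least 5, the H3K27ac share called lower in Ep300Δ/Δ cells moved from below to above that of all domains. With lists of equal length, H3K27ac was present in more broad domains in Tet2-/- than in WT cells. Of the main values, 88 kept within their counting interval or within 1.5 times, while 48 moved. The latter are given here as percent of domains unless stated. With a gap of at most 500 bp, 61.8% of WT broad domains overlapped a broad domain of Ep300Δ/ΔTet2-/- cells. With 2000 bp, 68.0% overlapped one of Ep300Δ/Δ cells and the median H3K27ac ratio from WT to Ep300Δ/Δ was 0.75. From 3000 bp there were 1970 WT domains with 2278 genes and 80.4% of the hematopoietic factors, H3K27ac was present in 93.1% in Tet2-/- cells, the other genotypes had 1512, 1815, and 1600 domains (Ep300Δ/Δ, Tet2-/-, Ep300Δ/ΔTet2-/-), and overlaps were 68.2% (Ep300Δ/Δ) and 69.8% (Ep300Δ/ΔTet2-/-). From 5000 bp there were 315 domains with 384 genes, WT H3K27ac was present in 97.8%, the other genotypes had 202, 307, and 223 domains, and overlaps were 57.1% and 59.4%. With -log10 q of at least 5, H3K27ac was present in 86.3% in Ep300Δ/Δ cells, the ratio from WT was 0.69, 9.49% lost it and 29.7% were at most 0.5 times, and overlaps were 58.4% and 61.3%. With lists of equal length, presence was 91.9%, 91.6%, and 92.3% in WT, Ep300Δ/Δ, and Tet2-/- cells, the ratios were 0.83 and 0.92 on the WT and Tet2-/- backgrounds, 11.6% and 7.67% were at most 0.5 times, and 3.55% lost it on the Tet2-/- background. Presence from 10% of the domain gave 93.5%, 89.2%, 90.9%, and 85.5% in the 4 genotypes, with 5.80% and 7.15% lost. At 1.5-fold, 31.3% and 23.9% were lower. The 1000 bp around the strongest summit, chosen after seeing the data, gave 93.2%, 88.9%, 89.6%, and 83.2%, with 5.81% and 8.32% lost. Of the values for single domains, marks, or further comparisons, 406 stayed the same and 184 moved. The causes were not tested. No paired analysis was possible because each genotype had 1 library for each mark.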

Other observations

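Some broad domains were shorter by 2 times or more in a set of genotypes and kept at least 0.9 of the WT length in the others. They were chosen after their values were seen and were not tested. In both genotypes with Ep300 deletion, but not in Tet2-/- cells, 18 of 738 broad domains (2.44%) were at most 0.5 of the WT length, beside 2.53% of all stitched domains and 0.74% of intermediate domains. The 3 longest were the domain of Glb1l, Stk16, and Tuba4a, with lengths of 11537, 5185, 11512, and 5489 bp in WT, Ep300Δ/Δ, Tet2-/-, and Ep300Δ/ΔTet2-/- cells, Csk, an inhibitory kinase of SRC family kinases (8360, 3782, 8722, and 3743 bp), and Ltb4r1, a leukotriene B4 receptor gene (7767, 3678, 7028, and 3733 bp). Others, from the longest to the shortest, were the domains of Crip1 and Tedc1, Prg3, Chst13, Hist1h4d, Clint1, Cdk2ap2 and Pitpnm1, Sec22c, Pxylp1, Chdh and Il17rb, Padi4, Syne1, Ccnd3, Parp16, and Cd300lb. A shorter stitched domain need not carry less H3K4me3, since a new gap over 1000 bp splits it. The domain of Glb1l, Stk16, and Tuba4a had 9704 bp covered by H3K4me3 peaks in Ep300Δ/Δ cells and 10525 bp in WT.

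In both genotypes without Tet2, but not in Ep300Δ/Δ cells, 4 broad domains (0.54%, all domains 1.10%, intermediate domains 0.20%) were at most 0.5 of the WT length. They were Dmtn, a gene of the red cell skeleton (5817, 5829, 1707, and 2196 bp), the histone genes Hist1h1a, Hist1h3a, and Hist1h4a in 1 domain (4721, 4898, 2064, and 2162 bp), Fech, the last enzyme of heme synthesis (4704, 4548, 1624, and 2247 bp), and Rab3il1 (4177, 4121, 1454, and 1522 bp). In all 3 other genotypes 15 broad domains (2.03%, all domains 6.07%, intermediate domains 0.91%) were at most 0.5 of the WT length, and the choice of members by WT length favors shorter domains elsewhere.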
